A study of Homo sapiens with 6 samples.

Results

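Actin genes and contractile genes driven by serum response factor (SRF) were followed in HCT116 cells, an established human colorectal carcinoma line, with and without knockdown (KD) of the long non-coding RNA GMDS-AS1. The 10 genes were taken by symbol from the 60662 genes with a value. They were SRF, ACTB, ACTG1, VCL, FLNA, TPM1, TPM2, TPM4, MYL9 and TAGLN, and all 10 passed the filter on low values. The control cells carried a nontarget shRNA (shCtrl, labelled WT) and the KD cells carried GMDS-AS1 shRNA2, each stably delivered by lentivirus from a puromycin plasmid. Each group had 3 libraries that the labels call biological replicates. No source used here says whether a line was 1 clone or a pool. Only 1 shRNA was sequenced, so loss of GMDS-AS1 and any other effect of this shRNA cannot be told apart.

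SRF is a transcription factor that binds the CArG box in the promoters of actin and contractile genes. In resting cells its coactivators MRTFA and MRTFB are held by actin monomers, and when actin is driven into filaments they are released, enter the nucleus and act with SRF. A second set of partners, the ternary complex factors ELK1, ELK3 and ELK4, links SRF to growth factor signalling. The filaments carry the cytoplasmic actins ACTB and ACTG1, tropomyosins along their length, crosslinkers such as filamin, and myosin II, which pulls on them.

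The CArG box was looked for first, because it is the sequence through which SRF reaches its targets. The box has CC, then 6 bases that are each A or T, then GG. It was searched on both strands from 250 bases before to 50 bases after 1 RefSeq start site per gene symbol (GRCh38.p14). Other start sites of a gene were not searched. Of the 10 genes, 7 were matched in the promoter table, and ACTB, MYL9 and TAGLN were not. Of these 7 promoters, 4 held at least 1 box (57.1%), against 1.29% of all 27305 promoters. The boxes are shown in capitals within 30 bases of the gene's strand, since they mark the genes of the set with a sequence for SRF near the start.
SRF (chr6:43171229-43171258, forward strand): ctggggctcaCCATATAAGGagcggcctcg
SRF (chr6:43171249-43171278, forward strand): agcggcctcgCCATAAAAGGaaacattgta
ACTG1 (chr17:81512874-81512903, reverse strand): ggaaagatcgCCATATATGGacatgttctg
FLNA (chrX:154374709-154374738, reverse strand): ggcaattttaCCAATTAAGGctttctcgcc
TPM4 (chr19:16067355-16067384, forward strand): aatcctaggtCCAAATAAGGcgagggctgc
The first base of the box lay 30 and 10 bases before the start site in SRF, 94 bases before it in ACTG1 and in FLNA, and 173 bases before it in TPM4. In GENCODE v29 the boxes of SRF and FLNA lie before the gene, and those of ACTG1 and TPM4 lie inside its outer bounds, which include transcripts that start further upstream. The windows of VCL, TPM1 and TPM2 held no match. A match to these letters is a description and does not show binding. The genes were selected as SRF targets, so a high share among them was built into the set.

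Expression was deposited in TPM (a length-adjusted abundance per library, normalized for transcript length and library total), a unit from which read depth cannot be recovered, so depth is unknown here. Between 26061 and 26402 genes were above 0 in the shCtrl libraries and between 24381 and 24814 in the KD libraries, without overlap. A gene was tested if 3 or more libraries reached 0.5 TPM, which left 16901 genes. After trimmed mean scaling, limma was fitted to log2(TPM + 1). Fold changes on this scale understate the change of low genes. The scaling raised the KD libraries against the shCtrl libraries, since its factors differed by a log2 value of -0.25, and without it the median of all genes lay at a log2 fold change of -0.20. Every direction below was therefore checked under trimmed mean scaling, upper-quartile scaling and no scaling (TPM as deposited). The targeted RNA, listed as GMDS-DT, measured 1.66, 2.21 and 1.34 TPM across the shCtrl replicates, against 0.88, 0.91 and 0.79 TPM across the KD replicates, a log2 fold change of -0.41 (limma, adjusted p = 0.0412).

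In KD cells 7 of the 10 genes rose and 2 fell (limma, adjusted p under 0.05), and TPM1 did not pass. Over all genes tested, 28.7% rose and 25.8% fell at the same threshold, 54.4% in all, so a call by itself set no gene apart. With all 3 scalings, 4 of the 10 genes rose (ACTB, SRF, TPM4 and MYL9) and 2 fell (FLNA and TPM2), against 16.3% and 25.8% of all genes. Only ACTB changed at least 2-fold, where 2.96% of all genes rose and 4.21% fell that far, and with upper-quartile scaling or TPM as deposited it did not reach 2-fold. In deposited TPM the groups did not overlap for 4 genes that were higher in KD cells and 4 that were lower, against 18.8% and 44.9% of all genes, and in scaled TPM for 6 and 2, against 31.9% and 30.1%. For the 10 genes the median log2 fold change was 0.32, and for all genes tested it was 0.00060. In these bulk libraries a change in the number of cells of one kind and a change in RNA per cell cannot be told apart.

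**Figure D1:**
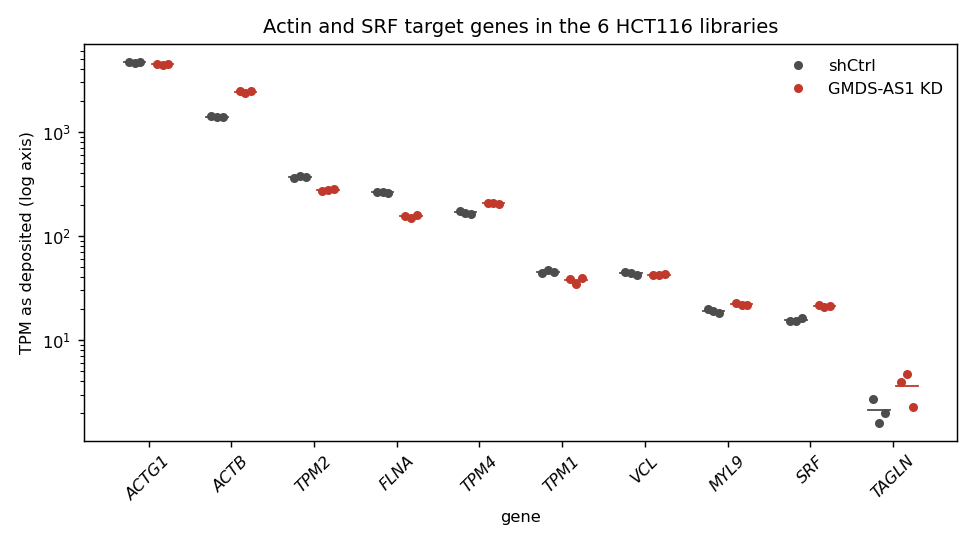
Deposited TPM (log axis) of the 10 genes in the 3 shCtrl libraries (grey) and the 3 GMDS-AS1 KD libraries (red), with bars at the group means. ACTB lies between 1375.26 and 1406.01 TPM in shCtrl and between 2371.5 and 2466.96 TPM in KD, while the ranges of VCL and of TAGLN overlap.

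SRF itself rose. It (ENSG00000112658) lies at chr6:43171299-43181507 on the forward strand of GRCh38, by GENCODE v29 as for all genes here, and is a protein-coding gene with 1 annotated transcript. SRF measured 15.38, 15.11 and 16.39 TPM across the shCtrl replicates, against 21.9, 20.72 and 21.25 TPM across the KD replicates. The groups did not overlap, and each KD library was above all shCtrl libraries. The log2 fold change was 0.66 ± 0.055 (SE; limma, adjusted p = 7.74e-05) and was 0.42 with TPM as deposited (limma, adjusted p = 0.000549). Of the 7 promoters matched, that of SRF was the only one with 2 CArG boxes.

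Of the partners of SRF, the coactivators did not pass and 1 ternary complex factor fell. MRTFA was at 10.9 ± 1.24 TPM with shCtrl and 10.7 ± 0.447 TPM with KD (SD, n = 3 each), and MRTFB was at 10.3 ± 1.3 TPM with shCtrl and 9.82 ± 0.589 TPM with KD (SD, n = 3 each). Neither passed the test (limma, adjusted p = 0.08 and 0.179), and the sign of both log2 fold changes turned between trimmed mean scaling and TPM as deposited. Of the 5 coactivators and ternary complex factors tested, only ELK3 passed with trimmed mean scaling, and ELK4 passed besides it under both other scalings. Of all genes tested, 25.8% fell with trimmed mean scaling and 40.3% fell with TPM as deposited. ELK3 fell from 47.3 ± 1.07 to 29.7 ± 1.10 TPM (SD, n = 3 each), a log2 fold change of -0.41 ± 0.046 (SE; limma, adjusted p = 0.000349). MYOCD, the coactivator of heart and smooth muscle, was not tested because its values were too low.

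The cytoplasmic actins differed. ACTB (ENSG00000075624), at chr7:5527147-5563784 (reverse strand), encodes beta-actin. It measured 1406.01, 1375.26 and 1390.54 TPM across the shCtrl replicates, against 2466.96, 2371.5 and 2456.87 TPM across the KD replicates. Every KD library was far above every shCtrl library, and the spread within each group was small beside the gap between them. The log2 fold change was 1.06 ± 0.021 (SE; limma, adjusted p = 3.14e-07), with 0.96 under upper-quartile scaling and 0.81 under no scaling.

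ACTG1 (ENSG00000184009), at chr17:81509971-81523847 (reverse strand), encodes gamma-actin, whose protein is nearly identical to beta-actin. ACTG1 measured 4674.85, 4565.93 and 4689.72 TPM across the shCtrl replicates, against 4521.3, 4408.17 and 4514.47 TPM across the KD replicates. As deposited, the KD libraries were slightly below the shCtrl libraries without overlap, and after trimmed mean scaling they were above them. The log2 fold change was 0.20 (limma, adjusted p = 0.000342) with trimmed mean scaling and -0.05 (limma, adjusted p = 0.073) with TPM as deposited, so the direction of ACTG1 was set by the scaling.

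A ratio taken within a library does not depend on the scaling. ACTB over ACTG1 was 0.301, 0.301 and 0.297 in the shCtrl libraries and 0.546, 0.538 and 0.544 in the KD libraries, 1.81-fold higher. ACTB thus made up 22.9% to 23.1% of the summed TPM of both actins in shCtrl cells and 35.0% to 35.3% in KD cells. The exact permutation test gave p = 0.1 (two-sided, 3 against 3 libraries), the smallest p that this design allows, and 0.117 after the Benjamini-Hochberg adjustment over the 7 ratios computed. As deposited, the summed TPM of ACTB and ACTG1 was 5941.19 to 6080.86 in shCtrl and 6779.67 to 6988.26 in KD.

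ACTB and ACTG1 share long stretches of coding sequence and have processed pseudogenes, and although the study names Cufflinks and RSEM, the sources used here do not say which of them made the deposited values or how it divided shared reads. The 11 listed ACTB pseudogenes summed to between 0.12 and 1.58 TPM per library and the 21 listed ACTG1 pseudogenes to between 3.1 and 6.68 TPM. Both sums were at most 0.143% of the parent gene. Reads placed between ACTB and ACTG1 themselves could not be examined from TPM.

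ACTB is widely used as a reference gene for qPCR. The methods of the study name it as such, while several of its legends for qPCR in knockdown cells name 18S. Set against the geometric mean of 11 other common reference genes, ACTB was at 4.96, 4.91 and 5.01 in the shCtrl libraries and at 8.62, 8.23 and 8.46 in the KD libraries, 1.70-fold higher (exact permutation test, two-sided, p = 0.1, n = 3 against 3, adjusted 0.117 over the 7 ratios). Of the 11 reference genes, 8 rose with trimmed mean scaling and none fell, beside 28.7% and 25.8% of all genes. With TPM as deposited 2 rose and 4 fell, beside 16.3% and 40.3% of all genes. RPLP0, a ribosomal protein gene, rose most, with a log2 fold change of 1.14, and HPRT1 followed with 0.61. GAPDH was at 5327 ± 96.9 TPM with shCtrl and 5124 ± 16.8 TPM with KD (SD, n = 3 each), with a log2 fold change of 0.19 that became -0.06 with TPM as deposited.

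Among the muscle actins, ACTA2 and ACTA1 also rose. ACTA2, smooth muscle alpha-actin and a classic SRF target, measured 13.46, 12.92 and 13.62 TPM across the shCtrl replicates, against 22.49, 21.17 and 22.09 TPM across the KD replicates. Its log2 fold change was 0.91 ± 0.050 (SE; limma, adjusted p = 1.17e-05), and it was 0.68 with TPM as deposited. ACTA1, the skeletal muscle actin, stayed under 1 TPM on average in both groups. ACTC1, ACTG2 and ACTBL2 were not tested because their values were too low.

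**Figure D2:**
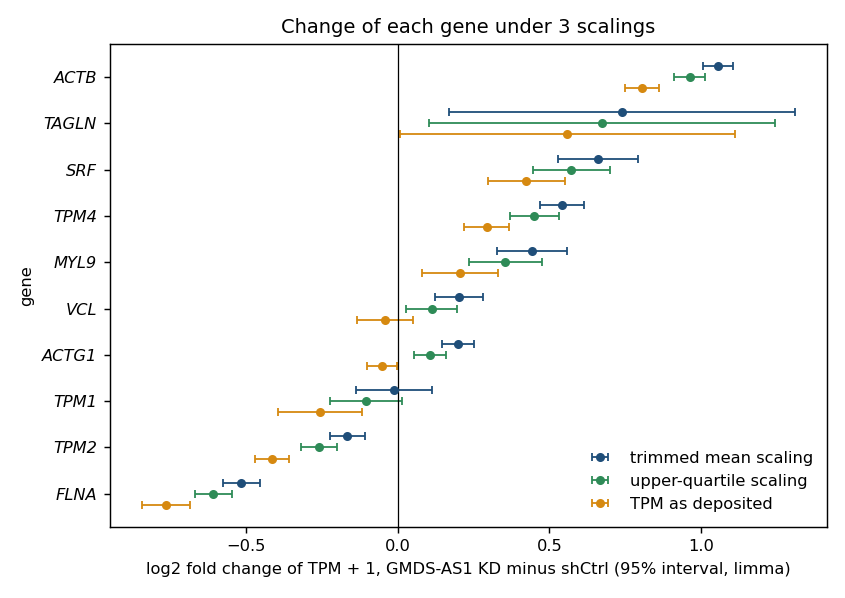
Log2 fold change of TPM + 1 (GMDS-AS1 KD minus shCtrl) of the 10 genes with 95% intervals from limma, under trimmed mean scaling (blue), upper-quartile scaling (green) and TPM as deposited (orange). ACTB, SRF, TPM4 and MYL9 are above 0 and FLNA and TPM2 below 0 under each of them, and ACTG1 and VCL change sign with TPM as deposited.

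The tropomyosins, coiled-coil proteins that lie along actin filaments and govern which other proteins reach them, changed in different directions. TPM4 (ENSG00000167460), at chr19:16067021-16103005 (forward strand), measured 174.09, 167.53 and 163.38 TPM across the shCtrl replicates, against 205.85, 208.92 and 204.87 TPM across the KD replicates. TPM4 was above the shCtrl range in each KD library, with a log2 fold change of 0.54 ± 0.030 (SE; limma, adjusted p = 1.29e-05). TPM2 (ENSG00000198467), at chr9:35681992-35690121 (reverse strand), measured 363.93, 372.8 and 369.62 TPM across the shCtrl replicates, against 273.18, 275.2 and 280.06 TPM across the KD replicates. TPM2 was below the shCtrl range in each KD library, and its log2 fold change was -0.17 ± 0.024 (SE; limma, adjusted p = 0.0011), or -0.42 with TPM as deposited.

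TPM1 (ENSG00000140416), at chr15:63042632-63071915 (forward strand), has 34 annotated transcripts that the deposited gene values add together. TPM1 measured 43.68, 46.99 and 44.92 TPM across the shCtrl replicates, against 38.35, 34.9 and 39.81 TPM across the KD replicates. The KD libraries were lower as deposited, but after trimmed mean scaling the groups overlapped and the log2 fold change was -0.01 (95% interval -0.14 to 0.11, limma adjusted p = 0.853). With TPM as deposited it was -0.26 (limma, adjusted p = 0.00815). TPM3, which was not in the set, was at 286.8 ± 3.26 TPM with shCtrl and 251.8 ± 4.06 TPM with KD (SD, n = 3 each). It did not pass with trimmed mean scaling (log2 fold change 0.06, limma adjusted p = 0.104) and was at -0.19 with TPM as deposited.

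The makeup of tropomyosin RNA, which no scaling can alter, held less TPM2 and more TPM4 in KD cells. TPM2 made up 42.1%, 42.5% and 42.7% of the summed TPM of the 4 tropomyosin genes in the shCtrl libraries and 35.7%, 35.5% and 36.0% in the KD libraries. TPM4 made up 20.1%, 19.1% and 18.9% in the shCtrl libraries and 26.9%, 27.0% and 26.4% in the KD libraries. For each of these shares the groups did not overlap, and the exact permutation test gave p = 0.1 (two-sided, 3 against 3 libraries, 0.117 adjusted over the 7 ratios). The share of TPM1 was 5.20% ± 0.154 in shCtrl and 4.88% ± 0.329 in KD (SD, n = 3 each), with p = 0.2 from the same exact test. The share of TPM3 ranged from 32.7% to 33.2% in shCtrl and from 32.4% to 33.0% in KD. Of the tropomodulins, which cap the slow-growing filament ends together with tropomyosin, TMOD1 fell from 5.58 ± 0.390 to 2.99 ± 0.0917 TPM (SD, n = 3 each), a log2 fold change of -0.52 (limma, adjusted p = 0.00184). TMOD3, the most abundant of them, was at 25.4 ± 1.08 TPM with shCtrl and 24.9 ± 1.90 TPM with KD (SD, n = 3 each). Its log2 fold change of 0.21 (limma, adjusted p = 0.0378) turned to -0.03 with TPM as deposited.

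**Figure D3:**
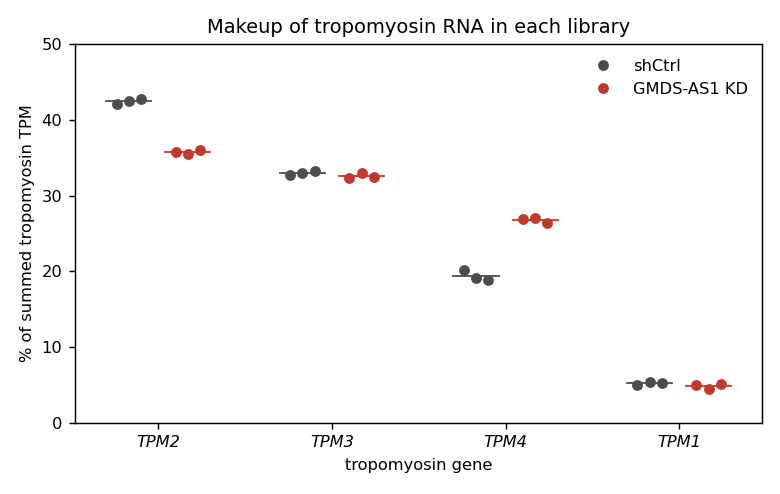
Share (%) of each tropomyosin gene in the summed TPM of TPM1, TPM2, TPM3 and TPM4, per library, for shCtrl (grey) and GMDS-AS1 KD (red), with bars at the group means. TPM2 lies between 42.1% and 42.7% in shCtrl and between 35.5% and 36.0% in KD, while TPM4 lies between 18.9% and 20.1% and between 26.4% and 27.0%.

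FLNA was the gene of the set that fell most. It (ENSG00000196924) lies at chrX:154348524-154374638 (reverse strand) and encodes filamin A, which crosslinks actin filaments into networks and ties them to membrane receptors. FLNA measured 263.71, 266.33 and 256.29 TPM across the shCtrl replicates, against 155.65, 148.24 and 157.74 TPM across the KD replicates. The groups lay well apart, and the log2 fold change was -0.52 ± 0.026 (SE; limma, adjusted p = 7.83e-06), or -0.76 with TPM as deposited. The FLNA promoter holds a CArG box, as do those of SRF and TPM4, which rose, and that of ACTG1, whose direction was set by the scaling.

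FLNC, the filamin best known from muscle, also fell. It measured 141.24, 141.46 and 140.49 TPM across the shCtrl replicates, against 21.9, 20.66 and 22.67 TPM across the KD replicates. This fall, a log2 fold change of -2.40 ± 0.036 (SE; limma, adjusted p = 1.03e-07), was the largest among the 80 other pathway genes tested.

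VCL (ENSG00000035403), at chr10:73995193-74121363 (forward strand), encodes vinculin, which couples integrins and cadherins to actin at adhesions. VCL measured 44.69, 44.41 and 42.37 TPM across the shCtrl replicates, against 42.61, 41.86 and 43.14 TPM across the KD replicates. As deposited the groups overlapped, with a log2 fold change of -0.04 (95% interval -0.13 to 0.05). After trimmed mean scaling the log2 fold change was 0.20 (95% interval 0.12 to 0.28, limma adjusted p = 0.00202), so the call for VCL rested on the scaling.

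Among 18 other crosslinkers and adhesion plaque proteins, all tested, 8 fell and 6 rose with trimmed mean scaling (25.8% and 28.7% of all genes), and 9 fell and 3 rose without scaling (40.3% and 16.3% of all genes). ACTN1, the crosslinker alpha-actinin, had a log2 fold change of 0.35 (limma, adjusted p = 0.000221) and ZYX, the adhesion protein zyxin, had 0.34 (limma, adjusted p = 0.000217). Neither passed with TPM as deposited (limma, adjusted p = 0.0739 and 0.092). PDLIM5, which binds alpha-actinin, rose from 53.6 ± 2.76 to 115.1 ± 2.00 TPM (SD, n = 3 each), a log2 fold change of 1.34 (limma, adjusted p = 1.84e-06).

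MYL9 (ENSG00000101335), at chr20:36541484-36551447 (forward strand), encodes a regulatory light chain of myosin II. MYL9 measured 19.71, 19.16 and 18.13 TPM across the shCtrl replicates, against 22.82, 21.72 and 21.61 TPM across the KD replicates. The groups did not overlap, and the log2 fold change was 0.44 ± 0.049 (SE; limma, adjusted p = 0.000298), or 0.21 with TPM as deposited. Its close relatives MYL12A and MYL12B were more than 10 times as abundant per length. MYL12A was at 431.5 ± 15.1 TPM with shCtrl and 340.4 ± 0.596 TPM with KD (SD, n = 3 each). MYL12B was at 490.9 ± 15.8 TPM with shCtrl and 483.2 ± 7.70 TPM with KD (SD, n = 3 each). MYL12A fell with all 3 scalings, by a log2 fold change of -0.09 with trimmed mean scaling (limma, adjusted p = 0.0269). That of MYL12B was 0.23 and turned to -0.02 with TPM as deposited. A ratio of MYL9 to their sum therefore also carries the fall of MYL12A.

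The ratio of MYL9 to the sum of MYL12A and MYL12B was 0.0207, 0.0207 and 0.0203 in the shCtrl libraries and 0.0280, 0.0262 and 0.0262 in the KD libraries, with p = 0.1 from the exact permutation test (two-sided, 3 against 3, 0.117 adjusted over the 7 ratios). The myosin II heavy chains fell where they passed. MYH9 fell from 158.4 ± 1.83 to 92.3 ± 3.97 TPM (SD, n = 3 each), a log2 fold change of -0.52 (limma, adjusted p = 2.96e-05), and MYH14 fell with a log2 fold change of -1.06 (limma, adjusted p = 5.46e-06). MYL6, the essential light chain, rose from 761.2 ± 16.5 to 983.7 ± 22.3 TPM (SD, n = 3 each), a log2 fold change of 0.62 (limma, adjusted p = 9.48e-06). Of the 10 genes of myosin II and its regulation, all tested, 4 fell and 3 rose with trimmed mean scaling, and 5 fell and 2 rose without it, beside the same shares of all genes.

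TAGLN (ENSG00000149591), at chr11:117199321-117204782 (forward strand), encodes transgelin, an actin-binding protein abundant in smooth muscle. It was the lowest gene of the set, with 2.73, 1.61 and 1.99 TPM across the shCtrl replicates, against 3.96, 4.72 and 2.28 TPM across the KD replicates. KD replicate 3 lay within the shCtrl range, so the groups overlapped. The log2 fold change was 0.74 ± 0.24 (SE; limma, adjusted p = 0.0357), but with TPM as deposited the adjusted p was 0.0785 from limma. Leaving out shCtrl replicate 2, shCtrl replicate 3, KD replicate 1 or KD replicate 2 also ended the call, with adjusted p from 0.0888 to 0.111 from limma.

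TAGLN2, a broadly expressed transgelin, fell from 145.7 ± 4.87 to 86.6 ± 1.62 TPM (SD, n = 3 each), a log2 fold change of -0.49 (limma, adjusted p = 1.45e-05). TAGLN over TAGLN2 was 0.0186, 0.0107 and 0.0142 in the shCtrl libraries and 0.0458, 0.0555 and 0.0258 in the KD libraries, with p = 0.1 from the exact permutation test (two-sided, 3 against 3, 0.117 adjusted over the 7 ratios). CALD1, caldesmon, which steadies tropomyosin-coated filaments, rose from 28.4 ± 0.305 to 47.5 ± 1.15 TPM (SD, n = 3 each), a log2 fold change of 0.97 (limma, adjusted p = 2.24e-06). TAGLN3, a transgelin of neurons, fell from 5.37 ± 1.08 to 0.900 ± 0.0361 TPM (SD, n = 3 each), a log2 fold change of -1.57 (limma, adjusted p = 8.14e-05).

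The order of levels, which TPM allows because it is per transcript length, differed between the groups at 2 places. In shCtrl cells the means ran from ACTG1 through ACTB, TPM2, FLNA, TPM4, TPM1, VCL, MYL9 and SRF to TAGLN, and the only neighbours whose ranges overlapped were TPM1 and VCL. In KD cells TPM4 stood above FLNA, at 206.6 against 153.9 TPM, and VCL stood above TPM1, at 42.5 against 37.7 TPM. MYL9 and SRF, at 22.1 and 21.3 TPM in KD cells, overlapped there and had not overlapped in shCtrl cells. The 10 genes together held 0.693% to 0.707% of all listed TPM in shCtrl libraries and 0.759% to 0.781% in KD libraries, most of it from ACTG1 and ACTB.

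The rest of the machinery was read from a list of 85 genes, of which 80 passed the filter. With trimmed mean scaling 28 of these 80 genes rose and 26 fell (limma, adjusted p under 0.05), beside 28.7% and 25.8% of all genes, and the median log2 fold change was 0.03. Without scaling 14 rose and 44 fell, beside 16.3% and 40.3% of all genes, so the balance of the list followed the scaling while members moved in both directions.

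Among genes that act on filament assembly, RHOB fell and LIMK1 rose. RHOA, the central GTPase of stress fiber formation, was at 352.2 ± 6.88 TPM with shCtrl and 339.8 ± 8.36 TPM with KD (SD, n = 3 each), with a log2 fold change of 0.20 that was -0.05 with TPM as deposited. RHOB, a short-lived relative, fell from 137.1 ± 8.53 to 66.7 ± 1.97 TPM (SD, n = 3 each), a log2 fold change of -0.78 (limma, adjusted p = 2.8e-05). LIMK1, the kinase that inactivates cofilin and so preserves filaments, measured 17.24, 17.14 and 18.16 TPM across the shCtrl replicates, against 34.91, 36.19 and 35.05 TPM across the KD replicates. Its log2 fold change was 1.22 ± 0.050 (SE; limma, adjusted p = 3.48e-06).

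Of 15 genes for monomer binding, severing and capping, 8 rose and 3 fell with trimmed mean scaling (28.7% and 25.8% of all genes), but without scaling 2 rose and 8 fell (16.3% and 40.3% of all genes). TMSB4X, thymosin beta 4, which sequesters actin monomers, fell from 637.4 ± 12.0 to 275.8 ± 2.17 TPM (SD, n = 3 each), a log2 fold change of -0.96 (limma, adjusted p = 6.32e-07). PFN2, the second profilin, fell from 102.8 ± 2.02 to 47.5 ± 0.615 TPM (SD, n = 3 each), a log2 fold change of -0.85 (limma, adjusted p = 2.5e-06). The more abundant PFN1, which feeds monomers to growing ends, had a log2 fold change of 0.04 (limma, adjusted p = 0.179), turning to -0.21 without scaling. CFL1, cofilin, had 0.11 (limma, adjusted p = 0.00523), turning to -0.14 without scaling.

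Of the 9 subunits of the Arp2/3 complex, which nucleates branched filaments, 3 rose and 3 fell with trimmed mean scaling, but 1 rose and 7 fell without it, beside the same shares of all genes. ARPC1A rose with a log2 fold change of 0.50 (limma, adjusted p = 2.29e-05) and ARPC2 fell with one of -0.43 (limma, adjusted p = 3.26e-05). CArG boxes were found in 7 of the 80 promoters matched for the list (8.75%), those of ROCK2, ACTA1, ACTC1, ACTG2, MYLK, CNN2 and FHL2. Of the 5 tested, which are named for the box alone, ACTA1 and CNN2 rose and ROCK2, MYLK and FHL2 fell, each with all 3 scalings. Of all genes tested, 16.3% rose and 25.8% fell with all 3 scalings.

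Several of these genes are used as markers of fibroblasts and smooth muscle, so other markers of those cells were read. As deposited and without scaling, the 9 such markers together held 33.9 to 34.2 TPM with shCtrl and 34.8 to 35.6 TPM with KD. Most of it came from ACTA2, which rose, and COL1A1. Every marker of this list other than ACTA2 had a lower mean in KD as deposited, which the total hides. COL1A1 was at 13.6 ± 0.831 TPM with shCtrl and 10.5 ± 0.460 TPM with KD (SD, n = 3 each). It did not pass with trimmed mean scaling (limma, adjusted p = 0.215). In deposited TPM its KD libraries lay below the shCtrl libraries without overlap, as for 44.9% of all genes. COL1A2, COL3A1, DCN, PDGFRB, THY1 and MYH11 were under 1 TPM on average in both groups, and DCN was listed at 0 in 5 of 6 libraries. DES, the muscle intermediate filament, fell from 5.56 ± 0.789 to 1.97 ± 0.177 TPM (SD, n = 3 each), with an adjusted p of 0.00047 from limma. All 7 epithelial markers were above 0 in every library, with VIL1 under 1 TPM on average. Together they held 9171 to 9621 TPM with shCtrl and 3445 to 3547 TPM with KD as deposited, most of it from KRT8, KRT18 and KRT19. These 3 keratins fell, while EPCAM, CDH1 and CDX2 did not pass (limma, adjusted p = 0.0729, 0.381 and 0.938). The part of this keratin change in the actin results was not tested.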

How the data were processed

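Poly-A selected RNA of 6 HCT116 libraries was sequenced in read pairs. The submitters' processing notes name Trimmomatic 0.27, TopHat2 2.1.1 and GRCh38.p13, and the study's methods also name Cufflinks and RSEM, and DESeq2 for the comparison. The authors deposited TPM per Ensembl gene, rounded to 2 decimals and not scaled between libraries. TPM is not a count, so limma 3.58.1 (R 4.3.3) was fitted to log2(TPM + 1) with a variance trend and no replicate block. Trimmed mean factors came from the genes kept, trimming 30% of log ratios and 5% of means from each end. Groups follow the sample titles, and p-values were adjusted over all genes tested (Benjamini-Hochberg).

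The 10 genes, the lists and the rule for named genes (14 fixed pathway genes, and per group the 2 largest changes that passed, with a group mean of at least 5 TPM) were chosen with earlier results of these data known. Positions are from GENCODE v29 and promoters from RefSeq (GRCh38.p14). Data were simulated with 200 genes changed, up or down, by a log2 value of 1.5. That size exceeds the change of each of the 10 genes, so recovery of smaller changes was not tested. With so few genes changed, the scaling was not tested either. On these simulated data 175 of the 200 changed genes were called, 115 of 118 at 10 TPM or more and 60 of 82 below it. The level at which this recovery was judged sufficient, 10 TPM, was set after the first outcome of that test was seen, and it leaves low genes such as TAGLN less well recovered. In the deposited files 2 genes had broken lines and no value. Some genes and 1 gene group of the lists are not reported here. Python 3.11.15 and scipy 1.17.1 were used for the other steps.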

Additional observations from a re-analysis of the deposited data

How the results depend on the processing

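With TPM as deposited, 4 of the 10 genes rose instead of 7, none was 2-fold higher instead of 1 (likewise 0 with upper-quartile scaling), and the pathway list had 14 higher and 44 lower instead of 28 and 26. Over all genes, TPM as deposited gave 2756 higher and 6814 lower instead of 4844 and 4355, and at least 2-fold 225 higher and 1177 lower instead of 500 and 712. A pseudocount of 0.1 gave 1461 lower at least 2-fold. The log2 fold changes of ACTG1 and VCL turned to -0.0513 and -0.0417 with TPM as deposited. That of TPM1 turned to 0.0181 with trimmed mean scaling over all genes above 0. This scaling was computed first and was replaced, after its results had been seen, by factors from the genes kept, so it stands here as an alternative chosen after seeing the data. Leaving out each library gave TPM1 -0.0594 to 0.035, the latter without KD replicate 2, while TPM as deposited brought it past the threshold.

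TAGLN passed in 7 of 14 alternatives, and no filter (adjusted p = 0.0998 from limma) and upper-quartile scaling (0.0503) also ended its call. SRF, ACTB, FLNA, TPM2, TPM4 and MYL9 kept their direction and an adjusted p under 0.05 from limma in all 14 alternatives. Leaving out each library gave 6 to 7 genes of the set higher and 2 to 2 lower.

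Same-numbered libraries did not deviate together (correlations 0.029, -0.0376 and 0.0142), and not every library correlated best with its own number. The replicate block left 7 higher and 2 lower and changed no call among the 10 genes. The depth is unknown, so no counting error was computed, and the low level of TAGLN limits what can be said of it.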
